A study of Mus musculus with 13 samples.

Results

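The transcripts of 9 maternal factors with a place in zygotic genome activation were followed in single mouse oocytes. The factors were Pou5f1, Nfya, Smarca4, Yap1, Trim24, Trim28, Nr5a2, Ctcf and Kdm1a. They were chosen by name, with earlier results of these data known, and looked up by gene symbol. All 9 were found among the 18939 genes with deposited counts and among the 49686 genes with deposited FPKM values, and all 9 passed the filter on low counts that left 11375 genes for testing over all libraries. The 13 libraries, each of 1 oocyte, came from 3 NSN GV oocytes, 3 SN GV oocytes, 3 NSN-MII oocytes, which had matured from NSN ones, and 4 SN-MII oocytes, which had matured from SN ones. In NSN oocytes the chromatin does not surround the nucleolus of the germinal vesicle (GV), the large nucleus of the oocyte before meiotic maturation. In SN oocytes it does. All oocytes were from C57BL/6 females of 3 to 4 weeks primed with PMSG, a gonadotropin that drives follicle growth. All were injected with FBL–GFP mRNA and held at the GV stage for 6 h in Cilostamide, a phosphodiesterase inhibitor, and their type was read from the pattern of FBL–GFP in the nucleolus. The MII oocytes were then released from the inhibitor and matured in culture. No group without injection or without Cilostamide was analysed here. The labels do not say which oocytes came from the same female, so p-values measure the spread between these oocytes only.

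NSN oocytes are known to transcribe still, while SN oocytes are largely silent. Once silent, the oocyte lives on stored maternal mRNA until the genome of the zygote is switched on, which in the mouse is mainly at the 2-cell stage. During the passage from GV to MII many stored mRNAs are degraded. Others are dormant, with short poly(A) tails, and are lengthened and translated. The factors studied here are known for what they do on chromatin after fertilization or in the oocyte before it. POU5F1 and NR5A2 are DNA-binding activators of early embryonic genes. NFYA is the subunit of the NF-Y complex that recognizes the CCAAT box. YAP1 is the transcriptional coactivator of the Hippo pathway and works through TEAD proteins. SMARCA4, also called BRG1, is an ATPase of the SWI/SNF chromatin remodellers. TRIM24 and TRIM28 are related cofactors of the TIF1 family, the first a coregulator of nuclear receptors and the second a corepressor recruited by zinc finger proteins. CTCF binds insulators and stops cohesin at chromatin loops. KDM1A removes methyl groups from histone H3 lysine 4.

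Total counts per library lay between 7140404 and 8846297, and the counts of the 9 transcripts lay between 54 and 1671, so that counting alone gives a coefficient of variation (CV) of 13.6% for the smallest and 2.45% for the largest. All 12 oocyte markers were above 0 FPKM in each of the 13 libraries. Of 14 markers of cumulus and granulosa cells, which surround the oocyte and express Nr5a2 strongly, Foxl2, Ptx3 and Lhcgr were at 0 FPKM in all 13 libraries. Nr5a1, Amh and Hsd3b1 were at 0 in 9 libraries, Fshr in 8 and Inha in 7. Inhba was at 0 in 4, Has2 and Cyp11a1 in 3 and Star in 1. Kitl was above 0 in all 13, at 0.59 to 7.58 FPKM. The summed FPKM of these 14 was 19.5 to 32.2 in GV and 35.4 to 58.9 in MII libraries, and Cyp19a1, at 16.8 to 53.05 FPKM, made up most of it. Of 8 markers of theca, immune, endothelial and blood cells, 6 were in the FPKM table. Cdh5 was at 0 FPKM throughout, Ptprc and Col1a1 in 12 libraries and Cyp17a1 in 11. Cd68 was above 0 in all 13, at 0.64 to 3.34 FPKM, and Pecam1, at 15.98 to 46.32 FPKM, gave most of the sum. Library make-up differed by stage as well. The number of genes detected was 12699 to 13342 at GV and 11593 to 12522 at MII, and the 10 most abundant genes took 5.47% to 6.6% of the counts at GV and 8.92% to 12.1% at MII. The NSN-MII library of replicate 3 was at the end of both MII ranges. The part of these differences in the changes below was not tested.

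Between GV and MII oocytes, 6 of the 9 transcripts rose, Nfya, Yap1, Kdm1a, Trim28, Ctcf and Smarca4, and 2 fell, Trim24 and Pou5f1. Nr5a2 did not pass the test. The fitted changes ran from 3-fold higher for Yap1 to 4.16-fold lower for Trim24. The test was edgeR's quasi-likelihood test of the mean of the SN and the NSN change, called at a Benjamini-Hochberg adjusted p under 0.05 over all genes tested. By the same test 68.6% of all genes tested differed between the stages, 31.7% higher and 36.9% lower at MII. A call was therefore the common outcome for a gene in this comparison, and 8 calls among 9 transcripts do not set these factors apart. The median log2 fold change of the 9 was 1.01, beside -0.0997 over all genes tested. Libraries of the 2 stages did not overlap in CPM (counts relative to the library total scaled by its TMM factor) for 6 of the 9, where 47.4% of all genes tested did not overlap. The 9 were chosen with earlier results of these data known, so their median and overlap beside all genes are given as a description.

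**Figure D1:**
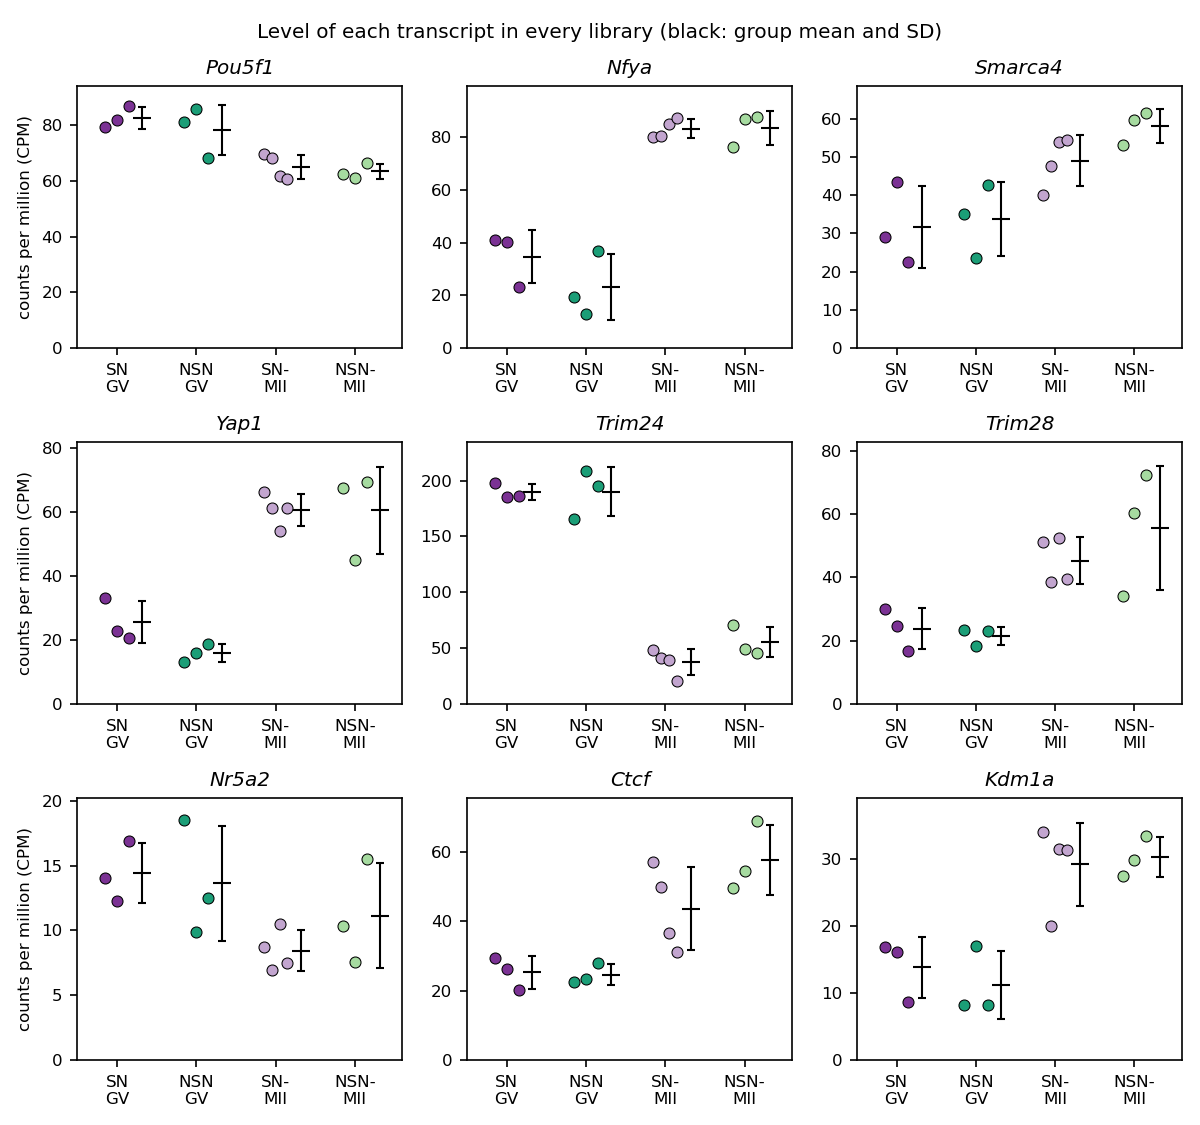
Level of each of the 9 transcripts in every library, in CPM on a linear axis from 0, by group (SN GV, NSN GV, SN-MII, NSN-MII). Points are single oocytes and black marks are the group mean and SD; Nfya and Yap1 stand higher in all 7 MII libraries than in all 6 GV libraries, and Trim24 lower.

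The libraries were primed on poly(A) tails, so the 3′ ends of these mRNAs are of interest to the measurement. In the mouse genome build GRCm38 (mm10), with GENCODE M21 annotation, the last 100 bases of the 3′ UTR were read from 1 protein-coding transcript per gene. They were searched on the sense strand for the polyadenylation hexamers AATAAA and ATTAAA and for the cytoplasmic polyadenylation elements (CPE) TTTTAT and TTTTAAT, which are known to mark dormant mRNAs for tail lengthening. A TTTTAAT can share bases with an AATAAA that follows it. A CPE of either form was found in 3 of the 9, Nfya, Yap1 and Kdm1a, and in 17.9% of 19587 mouse transcripts with a window of the same length. A hexamer was found in all but Nr5a2, and in 78.5% of the transcripts. The windows of the 3 transcripts with a CPE and of the 2 that fell are shown, with hexamers and CPEs in capitals, 5′ to 3′ on the strand of the gene.
Nfya, minus strand, chr17:48386900-48386929: tgcttttcttTTTTAATAAAtttataaaaa
Yap1, minus strand, chr9:7932002-7932031: ttttacAATAAAccaatTTTTATaatctta
Kdm1a, minus strand, chr4:136550565-136550594: tttTTTTAATatattttgagAATAAAactt
Trim24, plus strand, chr6:37966259-37966288: gatggcaactgcATTAAAaaaaaatcagga
Pou5f1, plus strand, chr17:35510736-35510765: attttgttcttaAATAAAgactgggacaca
In Nfya the CPE and the hexamer overlapped, in Yap1 the CPE followed the hexamer, and in Kdm1a a TTTTAAT came before it, with a further TTTTAT after it and outside the stretch shown. All 3 transcripts with a CPE were among the 6 that rose, and Smarca4, Trim28 and Ctcf rose with none in this window. How many of all transcripts with a CPE rose at MII was not counted, so no tie between a CPE and a rise can be read here. A match of letters is a description of the annotated end, and which end was used in these oocytes was not tested.

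Nfya (17, 48386885 to 48409906, minus strand) and Yap1 (9, 7931999 to 8004596, minus strand) had the steepest rise. Nfya was at 40.9, 40.2 and 23 CPM in the SN GV libraries and at 19.6, 13 and 36.9 CPM in the NSN GV libraries. At MII it was at 80, 80.4, 85.1 and 87.2 CPM in SN-MII and at 76.2, 86.9 and 87.5 CPM in NSN-MII libraries. The GV oocytes were thus widely spread and the MII oocytes close together, with no overlap between the stages. The log2 fold change was 1.56 (SE 0.222, adjusted p = 1.02e-05). Yap1 was at 33, 23 and 20.7 CPM in SN GV and at 13.1, 15.9 and 18.9 CPM in NSN GV libraries, and at 66.2, 61.4, 54 and 61.3 CPM in SN-MII and 67.6, 44.9 and 69.2 CPM in NSN-MII libraries. Every MII oocyte was above every GV oocyte, and the log2 fold change was 1.59 (SE 0.184, adjusted p = 1.01e-06). The counts of Nfya were not whole numbers in 7 of the 13 libraries, which shows that some of its reads were shared with other genes. Those of Yap1 were whole in all.

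Kdm1a (4, 136550540 to 136602723, minus strand), the histone demethylase, went from 12.5 ± 4.55 CPM (SD, n = 6) to 29.6 ± 4.76 CPM (SD, n = 7). Its GV libraries, at 8.2 to 17 CPM, lay below its MII libraries, at 20 to 34 CPM, with a log2 fold change of 1.26 (SE 0.245, adjusted p = 0.000228). Trim28 (7, 12999114 to 13031035, plus strand), the corepressor, was at 16.9 to 30 CPM at GV and at 34 to 72.3 CPM at MII, a log2 fold change of 1.15 (SE 0.21, adjusted p = 0.000131). Its stages did not overlap, but its NSN-MII libraries were far apart, at 34, 60.5 and 72.3 CPM. Ctcf (8, 105636568 to 105682922, plus strand), the insulator protein, was at 20.1 to 29.5 CPM at GV and at 31.1 to 68.9 CPM at MII, again without overlap. Its log2 fold change was 1.01 (SE 0.19, adjusted p = 0.000175). Smarca4 (9, 21616169 to 21704230, plus strand), the remodeller ATPase, had the smallest of the 6 rises, with a log2 fold change of 0.71 (SE 0.194, adjusted p = 0.00392), and its stages overlapped. The GV libraries reached 43.5 CPM and the lowest MII library, of an SN-MII oocyte, was at 40.1 CPM. With libraries scaled by their totals alone, Smarca4 no longer passed (adjusted p = 0.0628). No strand was recorded by the protocol as far as the sources used here state. Exons of Ctcf share 114 bases with Agrp on the opposite strand, which was at 0 to 1.47 FPKM, and the genes Zbtb45 and Luzp1, which overlap Trim28 and Kdm1a, share no exon bases with them.

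Trim24 (6, 37870811 to 37966296, plus strand), the other TIF1 cofactor, had the largest change of the 9. It was at 198, 185 and 186 CPM in SN GV and at 166, 209 and 195 CPM in NSN GV libraries. It was at 48.6, 41.2, 39.2 and 20.7 CPM in SN-MII and at 71.1, 49.6 and 45.9 CPM in NSN-MII libraries. All 7 MII oocytes held less than all 6 GV oocytes, with a log2 fold change of -2.06 (SE 0.187, adjusted p = 6.35e-08). Counts of Trim24 were not whole in any of the 13 libraries. The spread of Trim24 between oocytes went the other way from that of Nfya, with a CV of 7.63% at GV and 33.2% at MII.

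Pou5f1 (17, 35506018 to 35510772, plus strand), the pluripotency factor also known as OCT4, fell slightly. It was at 79.3, 81.7 and 86.9 CPM in SN GV and at 81.3, 85.7 and 68.3 CPM in NSN GV libraries, and at 69.5, 68.1, 61.7 and 60.8 CPM in SN-MII and 62.6, 61.1 and 66.5 CPM in NSN-MII libraries. The stages met only where 1 NSN GV library fell below 1 SN-MII library. The log2 fold change was -0.33 (SE 0.132, adjusted p = 0.0365), and the call was lost in 8 of the 13 fits that left out 1 library, with adjusted p up to 0.0739. Nr5a2 (1, 136842571 to 136960448, minus strand), the orphan nuclear receptor, was at 9.87 to 18.5 CPM at GV and 6.94 to 15.5 CPM at MII. Its log2 fold change of -0.53 (SE 0.249, 95% interval -1.06 to -0.00706) had an adjusted p of 0.067. It passed with DESeq2 (adjusted p = 0.0458), with library totals (adjusted p = 0.00747) and with limma on FPKM (adjusted p = 0.013 to 0.0273). Of the 13 fits that left out 1 library, 2 called it, and it was lower at MII under every setting tried. The granulosa marker sum given above, mostly Cyp19a1, was higher at MII, and the part of granulosa RNA in the Nr5a2 values was not tested.

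When the stages were compared within each type, 5 transcripts rose and 1 fell in SN oocytes, and 6 rose and 1 fell in NSN oocytes. The shares of all genes called were 56.3% in SN, with 25.1% higher and 31.2% lower, and also 56.3% in NSN, with 25.4% higher and 30.8% lower. Nfya, Yap1, Trim28, Ctcf and Kdm1a rose and Trim24 fell in both. Yap1 had a log2 fold change of 1.25 in SN (adjusted p = 0.00049) and of 1.93 in NSN oocytes (adjusted p = 1.94e-05). Nfya had one of 1.26 in SN (adjusted p = 0.00211) and of 1.85 in NSN oocytes (adjusted p = 0.000155). For both, the mean of the NSN GV libraries was the lower (16 against 25.6 CPM for Yap1, 23.2 against 34.7 CPM for Nfya), and the MII means were within 1 SD of each other. Trim24 had a log2 fold change of -2.34 in SN (adjusted p = 1.01e-06) and of -1.77 in NSN oocytes (adjusted p = 4.93e-05). Smarca4 passed in NSN (log2 fold change 0.79, adjusted p = 0.026) and not in SN oocytes (log2 fold change 0.63, adjusted p = 0.0536), and the difference between the types was not called, as given below. Neither outcome for Smarca4 was firm. The NSN call was lost with library totals (adjusted p = 0.146), with limma without a filter (adjusted p = 0.057) and without the NSN GV library of replicate 1 or 2 or the NSN-MII library of replicate 2 or 3, and in SN oocytes 4 of the 13 fits that left out 1 library made the call. Pou5f1 passed edgeR's test in neither type, although its stages did not overlap in SN or in NSN oocytes. It passed in SN oocytes with DESeq2 (adjusted p = 0.0476), library totals (adjusted p = 0.00804) and limma (adjusted p = 0.00293 to 0.00416), and in NSN oocytes with library totals (adjusted p = 0.0171). Nr5a2 did not pass in either type, and its stages did not overlap in SN oocytes, where it passed with DESeq2 (adjusted p = 0.0417), library totals (adjusted p = 0.0161) and limma on filtered FPKM (adjusted p = 0.0312 or 0.0335). Of all genes tested, 63.4% in SN and 60.9% in NSN did not overlap. With library totals 3 of the rises in SN oocytes no longer passed, Trim28 (adjusted p = 0.0606), Ctcf (adjusted p = 0.104) and Kdm1a (adjusted p = 0.0506), and Ctcf was also lost with limma without a filter (adjusted p = 0.0602). The same 3 were lost without replicate 3 of the SN GV oocytes, with adjusted p of 0.0721 for Trim28, 0.0881 for Ctcf and 0.0724 for Kdm1a. In that fit 3 of the 9 were called, and calls over all genes were fewer too, 5463 of 11638 against 6408 of 11375 with all libraries. Ctcf was lost as well without the SN-MII library of replicate 1.

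**Figure D2:**
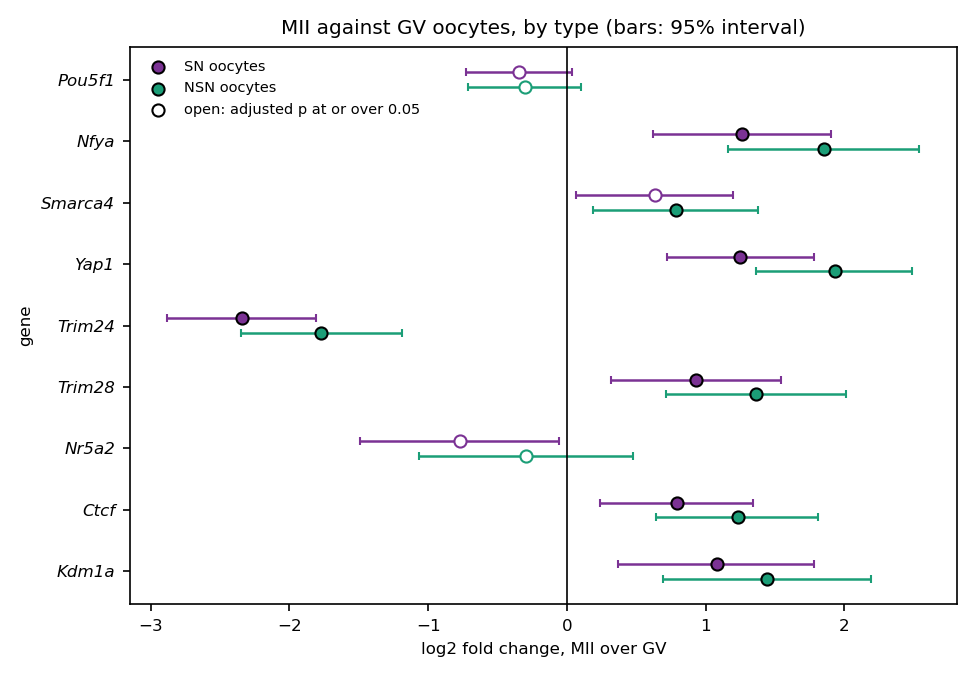
Log2 fold change of each transcript from GV to MII, in SN oocytes (purple) and NSN oocytes (green), with 95% intervals from the edgeR fit. Filled points passed an adjusted p of 0.05; 5 transcripts lie above 0 and Trim24 below 0 in both types with filled points, and the intervals of SN and NSN overlap for every transcript.

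Whether the 2 types of GV oocyte differ in these factors was asked next. None of the 9 was called between NSN and SN GV oocytes by edgeR, and none by DESeq2. The share of all 10839 genes called was 0%, and 1.75% had an unadjusted p under 0.05, among them 1 of the 9, Yap1. Yap1 was at 13.1, 15.9 and 18.9 CPM in NSN and at 20.7, 23 and 33 CPM in SN GV oocytes, without overlap, as did 6.03% of all genes. Its log2 fold change of NSN over SN was -0.67 (95% interval -1.3 to -0.0311), with an unadjusted p of 0.0417 and an adjusted p of 1. Nfya followed with -0.56 (95% interval -1.46 to 0.329), where the third NSN library, at 36.9 CPM, lay among the SN libraries. Leaving that library out gave -1.03, and leaving out the second gave -0.27. Kdm1a was at -0.3 (95% interval -1.21 to 0.615). The other 6 had log2 fold changes between -0.11 and 0.12. Trim24 was the most tightly bounded, at 0.015 (95% interval -0.33 to 0.36), and for Nr5a2 the interval still ran from -0.854 to 0.766. At this number of oocytes, changes of the size fitted for Nfya or Yap1 could not be told from none.

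At MII none of the 9 was called between NSN-MII and SN-MII oocytes, where 0.259% of 10028 genes were called, 26 in number. DESeq2 called none of the 9 either. None of the 9 had an unadjusted p under 0.05 with edgeR, as 9.38% of all genes did, and the libraries of the 2 types overlapped for each of the 9, while 10.2% of all genes did not overlap. Trim24 had the largest value, with a log2 fold change of 0.57 (95% interval -0.0627 to 1.2, unadjusted p = 0.0732, adjusted p = 0.584). Its mean CPM in NSN-MII was 55.5 ± 13.6 (SD, n = 3), and in SN-MII it was 37.4 ± 11.8 (SD, n = 4). Ctcf, with means of 57.7 ± 10 CPM in the 3 NSN-MII and 43.7 ± 11.9 CPM in the 4 SN-MII libraries (SD), gave 0.39 (95% interval -0.14 to 0.926). Nr5a2 gave 0.39 (95% interval -0.381 to 1.16) and Trim28 gave 0.29 (95% interval -0.282 to 0.853), and both moved with single libraries. Nr5a2 was between 0.098, without the NSN-MII library of replicate 3, and 0.596, without that of replicate 2, and Trim28 between 0.071, without replicate 3, and 0.539, without replicate 1. Smarca4 gave 0.24 (95% interval -0.182 to 0.667). The remaining 4 were near 0. Nfya, with means of 83.5 ± 6.34 and 83.2 ± 3.55 CPM (SD) over the same libraries, gave 0.0026 (95% interval -0.351 to 0.356). Yap1, with means of 60.6 ± 13.6 and 60.7 ± 5.03 CPM (SD), gave -0.0095 (95% interval -0.453 to 0.434).

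**Figure D3:**
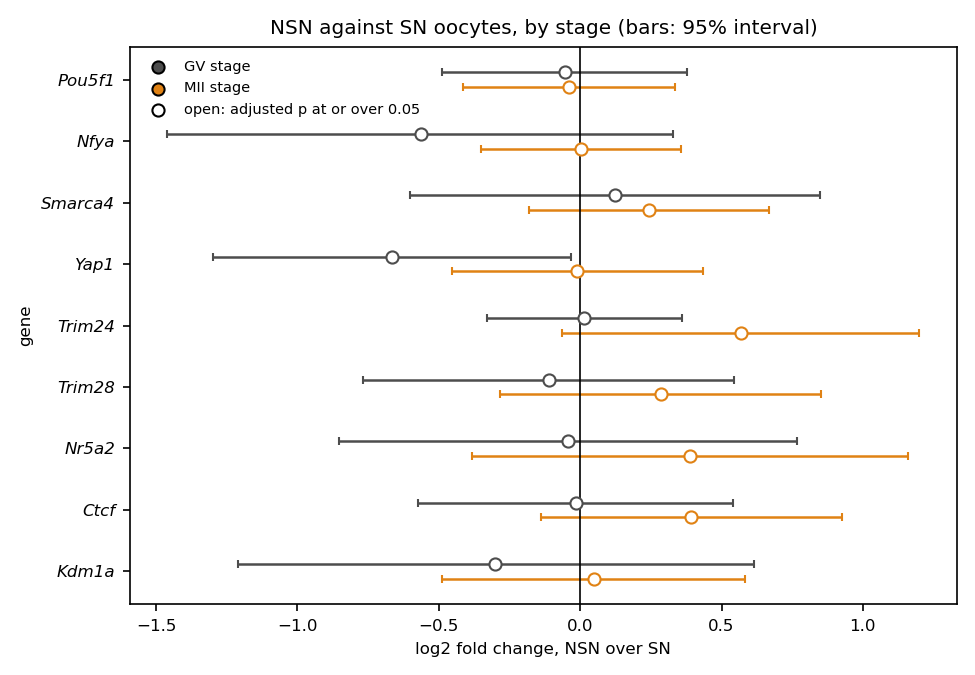
Log2 fold change of NSN over SN oocytes for each transcript at GV (grey) and at MII (orange), with 95% intervals from the edgeR fits of each stage. All points are open, since none passed an adjusted p of 0.05; the only interval that leaves out 0 is that of Yap1 at GV.

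The interaction of type and stage asks whether the change from GV to MII differed between NSN and SN oocytes. None of the 9 was called by edgeR or by DESeq2, and 0.0176% of all genes were called by edgeR. None of the 9 had an unadjusted p under 0.05 either, as 5.33% of all genes did. All 9 estimates were above 0, between 0.04 for Pou5f1 and 0.68 for Yap1, with a median of 0.44 beside 0.0405 over all genes tested. For Yap1 the interval was -0.0764 to 1.43 (unadjusted p = 0.075, adjusted p = 0.99), for Nfya, at 0.59, it was -0.321 to 1.5, and for Trim24, at 0.57, it was -0.202 to 1.34. These 3 values came about differently. For Nfya and Yap1 the estimate of NSN over SN was below -0.5 at GV and within 0.01 of 0 at MII, whereas for Trim24 it was 0.015 at GV and 0.57 at MII, and none of these values passed the adjusted test. The estimates for the 9 rest on the same 13 oocytes and are not 9 independent observations.

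FPKM values are per length and allow the transcripts to be ranked against each other. At GV the order was Pou5f1 at 80.6 ± 10 FPKM (SD, n = 6), Trim24 at 57.3 ± 2.57, Trim28 at 15.7 ± 3.33, Nfya at 10.9 ± 4.22, Nr5a2 at 7.27 ± 2.4, Ctcf at 6.76 ± 0.707, Smarca4 at 5.13 ± 1.54, Yap1 at 5.06 ± 1.39 and Kdm1a at 4.35 ± 1.48. At MII it was Pou5f1 at 53.6 ± 7.37 FPKM (SD, n = 7), Trim28 at 32.1 ± 6.54, Nfya at 25.3 ± 2.22, Yap1 at 13 ± 1.82, Ctcf at 12.9 ± 3.41, Trim24 at 12.4 ± 4.78, Kdm1a at 9.41 ± 2.23, Smarca4 at 8.27 ± 1.25 and Nr5a2 at 3.98 ± 1.21. Pou5f1 was thus the most abundant of the 9 per length at both stages, Trim24 went from the second place to the sixth and Nr5a2 from the fifth to the last. The fifth place of Nr5a2 at GV was not firm, since it was above Ctcf in 2 of 6 libraries only, with 11.19 FPKM in the NSN GV library of replicate 1, without which 5 of the 9 kept their rank. Neighbours in these orders were compared within libraries by an exact sign-flip permutation test, two-sided, over 16 pairs. The pairs were set by the order of the means in the same libraries. None passed after adjustment, and the lowest adjusted p was 0.0832. With so few libraries a pair could pass only where many of the 16 pairs reached the smallest p. The lack of a pass therefore says little about the order. The smallest p that 6 libraries allow is 0.0312 and the smallest that 7 allow is 0.0156. Those values were reached by the 6 pairs that kept their order in every library, Pou5f1 over Trim24, Trim24 over Trim28 and Ctcf over Smarca4 at GV, and Pou5f1 over Trim28, Nfya over Yap1 and Smarca4 over Nr5a2 at MII. Close neighbours such as Smarca4 and Yap1 at GV, with Smarca4 higher in 3 of 6 libraries, or Yap1 and Ctcf at MII, with Yap1 higher in 4 of 7, did not differ beyond their spread.

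The 2 TIF1 family members changed places. The ratio of Trim28 to Trim24 in FPKM was 0.323, 0.264 and 0.208 in the SN GV and 0.359, 0.228 and 0.258 in the NSN GV libraries. It was 2.39, 2.01, 3.77 and 5.16 in the SN-MII and 1.36, 2.72 and 3.34 in the NSN-MII libraries. Trim24 was the higher of the pair in all 6 GV oocytes and Trim28 in all 7 MII oocytes, of either type. The median ratio was 0.261 at GV and 2.72 at MII. CPM and FPKM gave changes in the same direction for all 9, of unequal size for some. The mean log2 difference between stages was 1.64 in CPM and 1.3 in FPKM for Nfya, -0.32 in CPM and -0.59 in FPKM for Pou5f1, and -0.57 in CPM and -0.86 in FPKM for Nr5a2.

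**Figure D4:**
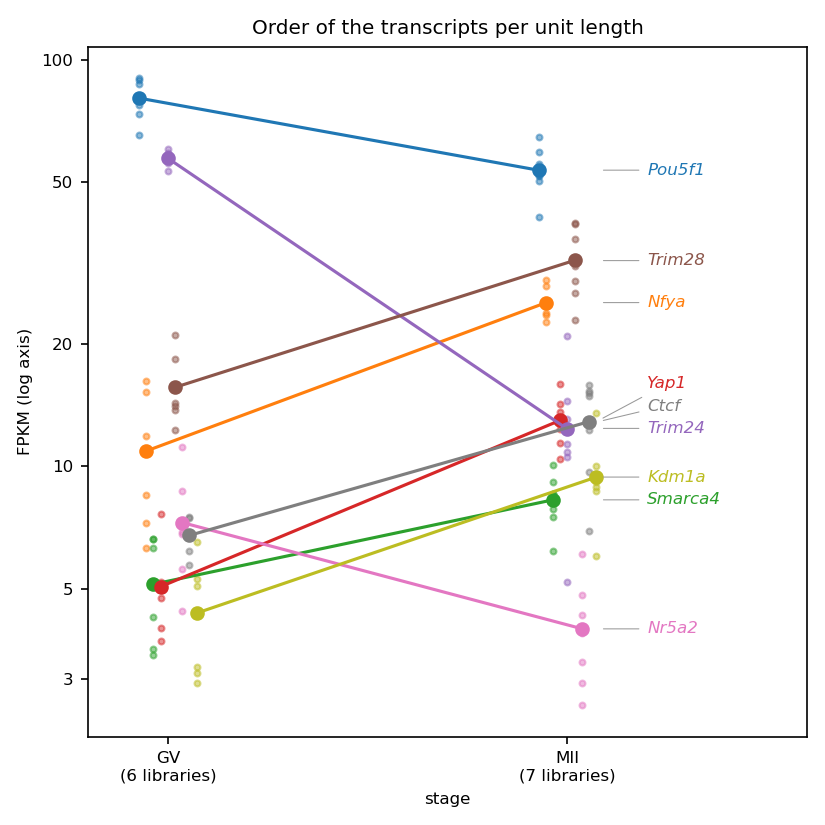
FPKM of each transcript at GV (6 libraries) and MII (7 libraries) on a log axis, with small points for single oocytes and large points, joined by lines, for the mean of a stage. The line of Trim24 crosses those of Trim28, Nfya, Yap1 and Ctcf, and Pou5f1 stays on top.

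The spread between oocytes of a group was smaller for these 9 than for all genes tested in 3 of the 4 groups. The median CV of the 9 in CPM was 17.9% in NSN GV (all genes 31.3%), 25.7% in SN GV (19.8%), 17.4% in NSN-MII (32.4%) and 16.4% in SN-MII oocytes (26%). Every count of the 9 was 54 or more, while the genes tested included ones with fewer counts, where counting alone adds more spread. Genes of matched level were not compared. Nfya had a CV of 53.4% in NSN GV and 29.3% in SN GV, and of 7.6% in NSN-MII and 4.26% in SN-MII oocytes. For Trim24 it went from 11.5% in NSN GV and 3.68% in SN GV to 24.4% in NSN-MII and 31.6% in SN-MII oocytes. After the group means were taken away, the 36 pairs of the 9 had a median Pearson correlation of 0.092 over the 13 libraries, with 24 pairs above 0. The oocytes that were high in Nfya for their group tended to be high in Smarca4 (r = 0.81) and low in Pou5f1 (r = -0.8), and Smarca4 and Pou5f1 went against each other as well (r = -0.67). These values share libraries and their scaling and are given as a description. Over the 13 libraries as they stand, the gene most like each factor in log2(CPM + 1) was Upf1 for Nfya (r = 0.989), Rps6ka5 for Yap1 (r = 0.973), Mars for Trim24 (r = 0.992), Cdk8 for Ctcf (r = 0.974), Rsbn1 for Smarca4 (r = 0.957), Bccip for Kdm1a (r = 0.955), Hsd17b13 for Trim28 (r = 0.953), Trub1 for Pou5f1 (r = 0.941) and Rab22a for Nr5a2 (r = 0.904). In each pair both genes were higher, or both lower, on average at MII. These correlations take in the difference between the stages and do not compare levels or the size of a change. Trub1, for example, went from 4.29 to 0.493 CPM, beside Pou5f1 from 80.5 to 64.3 CPM.

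The partners of each factor were read in the same comparison of MII with GV oocytes. There 31.7% of all genes tested were called higher and 36.9% lower, so calls in both directions were common in any list. The counts of the lists here and below were not tested against these shares. These lists were also chosen with earlier results of these data known. Of the other NF-Y subunits, Nfyb did not pass (log2 fold change 0.21, 95% interval -0.331 to 0.747) and Nfyc fell (-0.36, adjusted p = 0.0359). Nfya was the only subunit of the trimer called higher, and a rise of Nfyb within its interval could not be told from none. Of 12 tested genes of the Hippo pathway, 6 rose and 3 fell, with a median of 0.67. The kinase genes Stk3 (1.47) and Lats2 (1.57) rose with Yap1, and so did Mob1b (1.58). Wwtr1, which encodes the related coactivator TAZ, fell by 3.16 on the log2 scale, Tead3 by 2.01 and Amotl1 by 1.64. Lats2, from 1.17 to 3.32 CPM, and Tead3, from 1.53 to 0.349 CPM, were near the filter, and the call of Lats2 was lost under either other scaling. With library totals Vgll4 lost its call as well, and the median of the Hippo genes was 0.37. Of 17 tested subunits of the SWI/SNF complexes, 6 rose and 5 fell, with a median of -0.16. With library totals 5 rose and 8 fell, with a median of -0.48, and Smarcc1 lost its call. Arid1a (1.86), Brd7 (1.72) and Arid2 (1.71) rose like Smarca4, whereas Smarcb1 (-1.9), Smarce1 (-1.87) and Smarcc2 (-1.37) fell.

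Among 12 TRIM28 partners and TIF1 relatives, 6 rose and 3 fell, with a median of 0.14. Zfp445 (1.72), a zinc finger protein that recruits TRIM28 to imprinted loci, Trim33 (1.56), a further TIF1 relative, and Atf7ip (1.55), the partner of SETDB1, rose. Zfp57 (-0.68), also a guardian of imprints, Cbx5 (-0.67), which encodes a heterochromatin protein, and Pphln1 (-0.63) fell. With library totals the calls of this list stayed the same, and its median turned to -0.15. Of 12 tested genes of CTCF and cohesin function, 6 rose and 2 fell, with a median of 0.93. The cohesin loader Nipbl (1.92), the cohesin subunit Stag1 (1.75) and Pds5a (1.66) rose with Ctcf, while the CTCF paralog Ctcfl (-1.59) and Zfp143 (-1.57) fell. With library totals 6 genes of this list rose and 3 fell, with a median of 0.63. Of 11 tested genes around the CoREST complex of KDM1A, 4 rose and 1 fell, with a median of 0.58. Rcor1 (1.69), the scaffold of the complex, Kdm1b (1.41), the related demethylase of the oocyte, and Zmym3 (0.86) rose, and Gse1 (-1.45) fell. With library totals the balance turned, to 2 higher and 3 lower with a median of 0.23, and Zmym2 and Zmym3 lost their calls. Of 9 tested relatives and coregulators of NR5A2, 7 rose and none fell, with a median of 1.15, led by the corepressor Ncor1 (2.05) and the coactivators Ncoa2 (1.74) and Ncoa1 (1.56). Nr5a2 itself did not rise. With library totals 6 of these relatives and coregulators rose, with a median of 0.85, and Nr2c1 lost its call.

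Around Pou5f1, only 5 of 8 genes of its network were expressed enough to be tested, since Sox2, Nanog and Tdgf1 were filtered out. Sall4 rose (1.09), Esrrb (-2.93) and Dppa5a (-2.67) fell, and the median was 0.4. With library totals the calls of this network stayed the same, and its median was 0.095. Of 20 other maternal factors linked with genome activation, 10 rose and 8 fell, with a median of 0.54. Klf17 (1.78), Ep300 (1.52) and Hira (1.42) rose most, and Zar1l (-4.67), Dppa4 (-4.59) and Npm2 (-2.25), the oocyte chaperone that decondenses sperm chromatin, fell most. With library totals the balance turned, to 6 higher and 8 lower with a median of 0.23, and Hira, Sp1, Elf1 and Dppa3 lost their calls. Of 6 tested genes that are themselves switched on in 2-cell embryos, none rose and 5 fell, with a median of -1.16. Zscan4d (-2.81, from 7.94 to 1.1 CPM), Zscan4c (-2.76, from 2.18 to 0.301 CPM) and Tcstv3 (-1.44, from 19.3 to 7.43 CPM) fell most. They belong to families of near-identical copies whose reads cannot be assigned with certainty. No called gene of these lists changed its direction under another scaling. No gene of these lists was called between NSN and SN oocytes at either stage or in the interaction.

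All of these values are shares of a library, so a higher share and a larger amount per oocyte cannot be told apart, and neither can more mRNA and longer poly(A) tails. Library totals in place of TMM factors moved the median over all genes by -0.293 on the log2 scale between the stages, and the share of higher among called genes from 46.2% to 36.7%, from 44.6% to 33.4% in SN oocytes and from 45.2% to 35.6% in NSN oocytes, while the direction of each of the 9 factors stayed as reported.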

How the data were processed

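The authors deposited expected counts in 1 table per stage, and FPKM values, scaled by gene length and library size, in 1 table of all 13 libraries. Per the submitters' notes and the methods, SMART-seq2 reads were trimmed (Trim Galore 0.4.4), mapped to mm10 (Bowtie2 2.3.5) and quantified by RSEM 1.2.28, which shares out reads that fit several genes, and counts were normalized with DESeq2 1.20.0 for their tests. The deposited counts were not normalized. No strand or molecular identifier is stated. Groups were taken from the sample titles.

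Counts were rounded, filtered with filterByExpr, scaled by TMM and tested with the quasi-likelihood test of edgeR 4.0.16 (R 4.3.3), with Benjamini-Hochberg adjustment over all genes tested and a threshold of 0.05. MII against GV and the interaction used 1 model of 4 groups, and NSN against SN used each stage alone. Alternatives were DESeq2 1.42.0, its size factors, library totals, no filter, thinning of every library to the smallest total, 1 fit of all 13 libraries, a replicate block, limma 3.58.1 on log2(FPKM + 1) or log2(FPKM + 0.1) where the mean FPKM reached 1 or without that minimum, and leaving out each library. The steps were tested on simulated data.

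Named were all 9 factors and, of each list, up to 3 called genes per direction with the largest change between the stages, any gene called between types, and the gene most correlated with each factor. The members and lists were chosen with earlier results of these data known. Raw reads were not analysed here.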

Additional observations from a re-analysis of the deposited data

How the results depend on the processing

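Members called between MII and GV were 7 to 9 when each library was left out, 3 to 7 in SN oocytes and 6 to 7 in NSN oocytes, against 8, 6 and 7, and 0 in every such fit between NSN and SN at GV, at MII and in the interaction. Of all genes tested, these fits called 7480 to 7830 between MII and GV, against 7800. They called 5463 to 6714 in SN oocytes, against 6408, and 5847 to 6426 in NSN oocytes, against 6403. The lowest member count and the lowest count of all genes in SN oocytes came from the same fit, without the SN GV library of replicate 3. By FPKM, 5 to 9 members kept their rank at GV and 6 to 9 at MII. No member changed direction between the stages. Replicate numbers did not pair the oocytes throughout (correlations of deviations from -0.458 to 0.202, own number best in 5 of 12 pairs). Between NSN GV and NSN-MII oocytes the own number was best for replicates 1, 2 and 3 (0.186, 0.0287 and 0.202). Whether a number stood for a shared batch was not tested. With the replicate block, Pou5f1 lost its call (adjusted p = 0.0895) and the genes called at MII were 2 instead of 26. Without a filter, Pou5f1 was lost too (adjusted p = 0.102).

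Differences between NSN and SN that lay near 0 changed sign under some settings, with none of them called. At GV, limma on FPKM gave 0.119 to 0.125 for Trim28, 0.0304 to 0.035 for Ctcf and 0.00777 for Nr5a2. Leaving out libraries gave -0.139 to 0.0529 for Pou5f1, -0.0566 to 0.394 for Smarca4, -0.0356 to 0.0548 for Trim24, -0.292 to 0.0798 for Trim28, -0.402 to 0.156 for Nr5a2 and -0.139 to 0.1 for Ctcf. At MII, limma on FPKM gave 0.107 or 0.109 for Pou5f1, 0.00616 or 0.00555 for Yap1 and -0.0443 or -0.0433 for Kdm1a. Yap1 was at 0.0251 with library totals and at 0.000888 with thinned counts, and Nfya at -0.000893 without a filter. Leaving out libraries gave -0.04 to 0.0592 for Nfya, -0.106 to 0.158 for Yap1 and -0.092 to 0.128 for Kdm1a. In the interaction it gave -0.144 to 0.365 for Smarca4 and -0.0431 to 0.108 for Pou5f1. The cause was not tested.

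The number of genes called at MII moved from 26 to 221 with DESeq2, 89 without a filter, 69 with all libraries in 1 fit, 16 with library totals, 4 or 2 with limma, and 2 to 233 when libraries were left out, the highest without the NSN-MII library of replicate 3. At GV limma called 1 gene with the filter and 0 without it, against 0. In the interaction DESeq2 called 43 genes, the fit without a filter 6, limma 1 or 4, and fits without 1 library 0 to 12, against 2.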
